A study of Mus musculus with 6 samples.

Results

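The proteasome is the multi-subunit protease that degrades ubiquitin-tagged proteins. Its genes were followed here as the rows of the deposited count table whose symbol begins with Psm, a letter from a to g and a digit. The symbol alone decided which rows belong, and it took 49 of the 15106 genes in the table. The gene group itself was chosen with earlier results of these data known. The RNA came from mice aged 6 weeks that carry the FOXP3-GFP reporter, in which cells expressing the regulatory T cell factor FOXP3 fluoresce green. Tregs, the FOXP3-expressing regulatory T cells, gave 4 libraries and Teffs, the effector T cells they are set against, gave 2, and both were sorted from skin of the same reporter line. The labels do not tie any library to an animal, so the p-values below measure the spread between these libraries, which may be partly technical.

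The core particle is a barrel of stacked rings of alpha and beta subunits, and 3 of its beta subunits carry the peptide-cutting sites. In most cells these are the constitutive subunits encoded by Psmb6 (beta1, which cuts after acidic residues), Psmb7 (beta2, after basic residues) and Psmb5 (beta5, after hydrophobic residues). Lymphocytes and cells exposed to interferon-gamma also make the immunoproteasome, in which the products of Psmb9 (LMP2), Psmb10 (MECL-1) and Psmb8 (LMP7) take those places and favour peptides that load onto MHC class I. A regulatory particle of ATPases (Psmc genes) and non-ATPase subunits (Psmd genes) recognises and unfolds substrates. The activators, encoded by Psme genes, can cap the core instead, and the chaperones, several of them encoded by Psmg genes, assist assembly.

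In these libraries the immunoproteasome gene Psmb8 stood at about 0.485 times its Teff level in Tregs and the ranges of the groups did not overlap. Tregs lay below Teffs without overlap for 9.49% of all tested genes. The structural beta genes were nearly level with all 6 libraries (log2 fold changes, Treg minus Teff, of 0.03 to 0.12). Without Treg 3 they ran from -0.54 to 0.29. The sum of Psmb8, Psmb9 and Psmb10 was 665 ± 93 CPM in Tregs (counts scaled to library size, as CPM; SD, n = 4), against 1220 ± 47.8 CPM in Teffs (SD, n = 2). The sum of the constitutive Psmb5, Psmb6 and Psmb7 reached 266 ± 51.6 CPM in Tregs, against 327 ± 3.82 CPM in Teffs. No proteasome gene passed the test across all genes.

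The immunoproteasome genes Psmb8 and Psmb9 lie close together on chromosome 17, in the MHC, and Psmb10 lies on chromosome 8. In GENCODE M21 (GRCm38, the assembly that mm10 names), Psmb8 spans 34197721 to 34201454 on the plus strand and Psmb9 spans 34181987 to 34187764 on the minus strand of chromosome 17. Psmb10 spans 105935735 to 105938444 of chromosome 8. Psmb5 lies on chromosome 14 (54614119 to 54618022), Psmb6 on chromosome 11 (70525367 to 70527858) and Psmb7 on chromosome 2 (38588036 to 38644087). The 250 bases before the RefSeq start site are shown for 5 of these genes, because their RNA levels are compared below and because the Psmb9 window is also the promoter region of Tap1, a gene read in the opposite direction. RefSeq places the Psmb9 start at 34187330 and the Tap1 start at 34187556 of chromosome 17, 226 bases apart. The GENCODE models of Psmb8, Psmb9, Psmb10 and Psmb5 begin further upstream than their RefSeq starts. For Psmb8 and Psmb9 the whole window shown lies within the GENCODE gene. The windows are RefSeq sequence (GRCm38.p6), and capitals mark the letters of the motifs searched.
Psmb8 (chr17:34197945-34198194, plus strand): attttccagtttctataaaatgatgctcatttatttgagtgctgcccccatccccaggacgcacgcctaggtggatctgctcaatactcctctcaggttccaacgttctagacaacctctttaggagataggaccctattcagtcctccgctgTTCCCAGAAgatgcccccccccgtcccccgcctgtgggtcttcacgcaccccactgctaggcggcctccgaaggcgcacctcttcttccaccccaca
Psmb9 (chr17:34187331-34187580, minus strand): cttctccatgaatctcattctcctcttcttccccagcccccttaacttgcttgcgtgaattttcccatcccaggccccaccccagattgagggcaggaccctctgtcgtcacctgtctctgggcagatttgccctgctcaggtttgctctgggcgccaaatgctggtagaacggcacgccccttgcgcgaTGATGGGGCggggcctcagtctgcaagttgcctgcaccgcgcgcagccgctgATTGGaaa
Psmb10 (chr8:105938393-105938642, minus strand): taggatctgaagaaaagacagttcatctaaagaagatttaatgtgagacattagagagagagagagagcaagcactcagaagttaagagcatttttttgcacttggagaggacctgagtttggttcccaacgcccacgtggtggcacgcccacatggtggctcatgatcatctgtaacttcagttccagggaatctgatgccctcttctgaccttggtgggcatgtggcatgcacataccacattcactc
Psmb5 (chr14:54617996-54618245, minus strand): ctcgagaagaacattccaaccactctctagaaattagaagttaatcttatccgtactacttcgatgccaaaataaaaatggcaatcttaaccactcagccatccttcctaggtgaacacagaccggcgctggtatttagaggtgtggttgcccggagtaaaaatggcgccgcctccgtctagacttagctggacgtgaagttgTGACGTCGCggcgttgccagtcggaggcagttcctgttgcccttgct
Psmb6 (chr11:70525107-70525356, plus strand): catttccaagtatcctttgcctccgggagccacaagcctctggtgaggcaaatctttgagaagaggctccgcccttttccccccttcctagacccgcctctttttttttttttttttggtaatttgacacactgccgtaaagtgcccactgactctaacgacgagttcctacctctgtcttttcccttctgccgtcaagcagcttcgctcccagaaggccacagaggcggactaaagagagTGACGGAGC

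The motifs searched on both strands were TTCNNNGAA (GAS, the gamma-activated site), a form of the interferon-stimulated response element (GAAA, any 2 bases, GAAA), TGANNNNGC (a form of the antioxidant response element, which NRF1 and related factors bind) and CCAAT. The GAS letters occurred in the Psmb8 window, starting 97 bases before the start site. The TGANNNNGC letters occurred in the windows of Psmb9, Psmb5 and Psmb6, starting 60, 47 and 9 bases before the start, and CCAAT occurred in that of Psmb9, as its reverse complement. None of the 4 motifs occurred in the Psmb10 window, and no matches overlapped in the windows shown. RefSeq windows were at hand for 42 of the 49 genes. The GAS letters were held by 4.44% of the 45 windows of proteasome genes and 7.01% of all 32817 windows of the same length. The interferon element was in 6.67% of the proteasome windows and 2.97% of all, TGANNNNGC in 40% and 35.2%, and CCAAT in 33.3% and 33.8%. These are matches of letters and not mapped binding sites.

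Counts in genes ranged from 5582022 to 7046685 in Tregs and were 7468778 and 4902126 in Teffs. Genes with a count numbered 9602, 9838, 12605 and 11074 in Treg 1 to Treg 4, against 13197 and 11894 in Teff 1 and Teff 2. Treg 1 and Treg 2 thus had the fewest genes detected, which bears on low or absent values in those libraries. Foxp3 stood at 103, 233, 154 and 183 CPM in Treg 1 to Treg 4, against 11.3 and 7.17 CPM in Teff 1 and Teff 2, which is the direction the labels give. Its log2 fold change of 4.19 ± 0.61 (SE) had an adjusted p of 0.131 in edgeR's quasi-likelihood test and of 9.49e-11 in DESeq2. T cell markers were present throughout, with a summed level of 3640 to 7410 CPM in Tregs and 6600 to 7300 CPM in Teffs. Treg 3 stood apart in markers of skin cells: its 6 fibroblast markers summed to 1990 CPM, against 3.85 to 8.3 CPM in the other Treg libraries and 3.88 to 176 CPM in Teffs. Its keratinocyte markers summed to 685 CPM, against 0.285 to 20.7 CPM in the other Treg libraries and 39.1 to 98 CPM in Teffs, with Krt10 at no count in any Treg library. Myeloid markers summed to 563 CPM in Treg 4, against 133 to 200 CPM in the other Treg libraries and 153 to 225 CPM in Teffs. Melanocyte markers summed to 46.6 to 84.3 CPM in Tregs and 34.3 to 72.5 CPM in Teffs. Endothelial markers summed to 16.1 to 66.1 CPM in Tregs and 85 to 121 CPM in Teffs. The part of these cells in the results was not tested beyond leaving out Treg 3, and values without that library are given for the main results. In bulk libraries such as these, fewer cells of a kind and less RNA per cell cannot be told apart.

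Among the 49 proteasome genes, 48 passed the filter on low counts and were tested. The gene left out was Psmb11, which encodes a catalytic subunit of thymic cortical epithelium and had 1 count in Treg 1 and none elsewhere. With 48 tested genes, 0 were called at an edgeR quasi-likelihood adjusted p under 0.05, where 0.0425% of all 11775 tested genes were called (5 genes). DESeq2 called 0 of them and 1.78% of all genes to which it gave an adjusted p (183 of 10289). An FDR under 0.05 was given to 0 of them and 0.285% of all genes (43) in the authors' deposited table. The edgeR calls with the Treg level lower made up 0.00849% of all tested genes. At an unadjusted p under 0.05 edgeR picked 1 of the 48 (2.08%), against 4.73% of all tested genes. The Treg and Teff ranges did not overlap in either direction for 15% of all tested genes. Among the proteasome genes they were apart for 5 genes that were lower in Tregs (10.4%, against a background of 9.49% of all tested genes) and for 1 that was higher (2.08%, against 5.51%), which is near the background for the lower side. The genes lower in all 4 Treg libraries were Psmb8, Psmb9, Psmc4, Psmd4 and Psmc3ip, and the gene higher in all 4 was Psmc3.

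The fitted log2 fold changes (Treg minus Teff) of the 48 genes had a median of -0.23, with 32 negative and 16 positive, beside a median of 0.07 over all tested genes, of which 46.6% were negative. The middle of the proteasome distribution, from the lower to the upper quartile, ran from -0.48 to 0.05, and that of all tested genes from -0.52 to 0.69. With upper-quartile scaling the median of all tested genes moved by -0.11 and that of the proteasome genes to -0.35, which shifts both alike. The proteasome median lay 0.30 below that of all tested genes with all 6 libraries and 0.16 below it without Treg 2. It lay 0.39 below that of all tested genes when Teff 1 alone or Teff 2 alone was left out. With the replicate block, which compares same-numbered libraries, the proteasome median was -0.58 and that of all genes -0.64, so the proteasome genes no longer lay lower. Summed over all 49 genes, Treg 1 to Treg 4 held 6047, 5739, 6362 and 6648 CPM, against 7871 and 6814 CPM in Teff 1 and Teff 2. Each Treg library thus lay below both Teff libraries in the sum, and the ranges overlapped when Psmb8 alone was left out (5376 to 6356 CPM in Tregs, 7095 and 6129 CPM in Teffs).

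**Figure D1:**
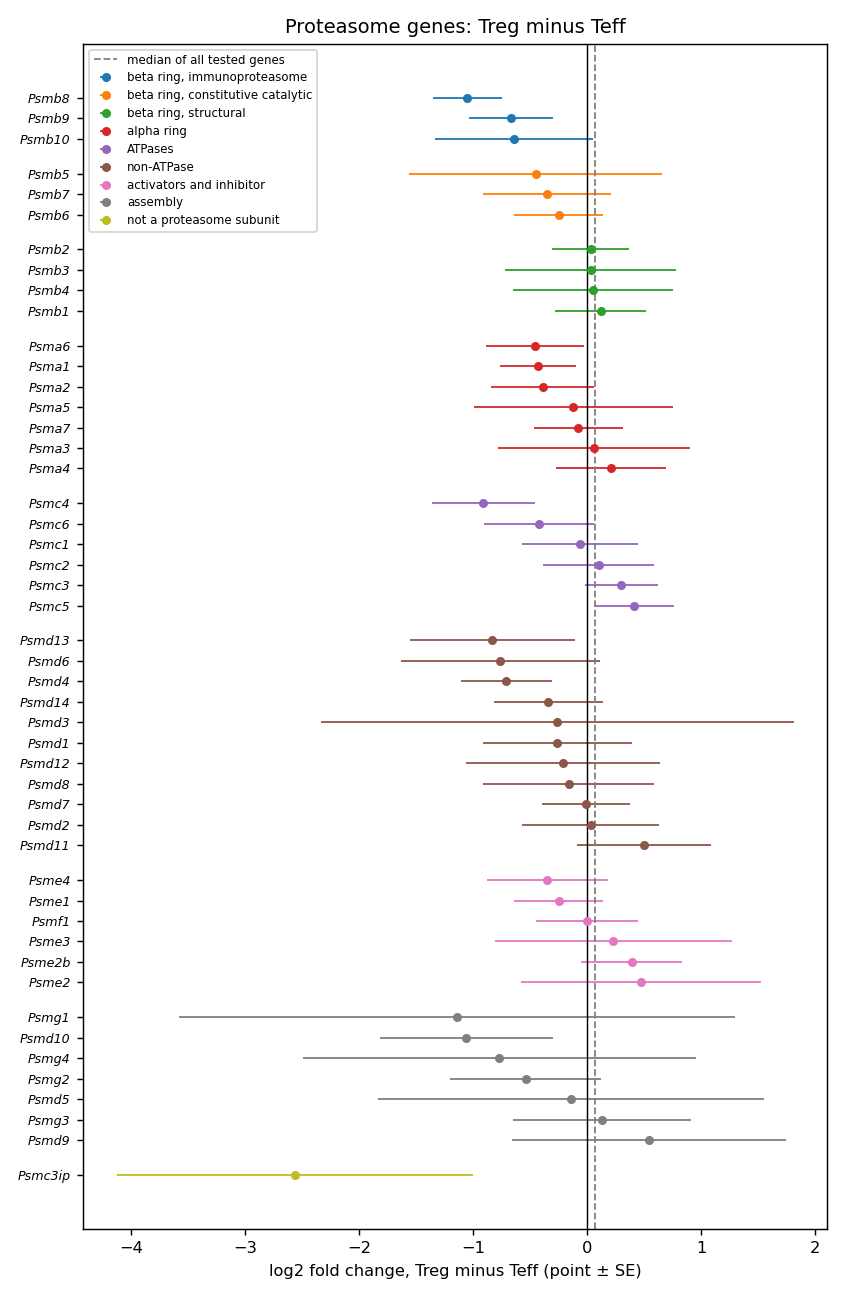
Fitted log2 fold change, Treg minus Teff, of the 48 tested proteasome genes (points, with bars of 1 SE), grouped by role, with the median of all 11775 tested genes as a dashed line. Psmb8 lies at -1.05 ± 0.30, the 4 structural beta genes lie between 0.03 and 0.12, and Psmc3ip, which is not a proteasome subunit, lies at -2.56.

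Psmb8, the immunoproteasome form of beta5, had 436, 363, 325 and 291 CPM in Treg 1 to Treg 4, against 776 and 685 CPM in Teff 1 and Teff 2. Every Treg library was below both Teff libraries, and the lowest Teff library was above the highest Treg library by more than either group's own range. The means were 354 ± 62.1 CPM in Tregs (SD, n = 4) and 731 ± 64.2 CPM in Teffs (SD, n = 2), on 1856 to 2417 counts per Treg library and 5862 and 3536 counts in Teffs. The log2 fold change was -1.05 ± 0.30 (SE), with a 95% interval of -1.75 to -0.34. In edgeR's quasi-likelihood test this gave an unadjusted p of 0.00894, the lowest of the 48 proteasome genes, and an adjusted p of 0.721 over all genes. Without Treg 3 the log2 fold change was -1.0, and over the libraries left out in turn it ran from -1.16 to -0.96 with an edgeR adjusted p of 0.415 or more. The authors' deposited table gives -1.10 for it, with a p-value of 0.0406 and an FDR of 1. Exons of an annotated gene on the other strand cover 11.4% of the exonic bases of Psmb8, and the strand setting of the counting is unknown.

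Psmb9, the immunoproteasome form of beta1, had 128, 182, 157 and 233 CPM in Treg 1 to Treg 4, against 264 and 294 CPM in Teff 1 and Teff 2. All Treg libraries were again below both Teff libraries, with Treg 4 closest to them. The log2 fold change of -0.67 ± 0.37 (SE) did not pass (edgeR adjusted p of 1, unadjusted p of 0.105). Psmb10, the immunoproteasome form of beta2, was uneven among Tregs, with 32.5, 214, 93.3 and 206 CPM in Treg 1 to Treg 4, against 216 and 209 CPM in Teff 1 and Teff 2. Treg 2 and Treg 4 sat at the Teff level and Treg 1 far below it, a range of 6.58-fold among Tregs and 1.03-fold among Teffs. The log2 fold change of Psmb10 was -0.64 ± 0.69 (SE) and moved to -0.31 without Treg 1 (edgeR adjusted p of 1 with all libraries).

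The constitutive partners were on average also lower in Tregs, with overlapping ranges. Psmb5, the beta5 gene, had 11.7, 28, 15.3 and 15.8 CPM in Treg 1 to Treg 4, against 23.6 and 24.8 CPM in Teff 1 and Teff 2. Psmb6, the beta1 gene, had 140, 180, 124 and 230 CPM in the Treg libraries, against 198 and 202 CPM in the Teff libraries. Psmb7, the beta2 gene, had 50.9, 54.2, 133 and 83 CPM in the Treg libraries, against 102 and 102 CPM in the Teff libraries. For each of these genes 3 Treg libraries lay below both Teff libraries and 1 lay above both: Treg 2 for Psmb5, Treg 4 for Psmb6 and Treg 3 for Psmb7. Their log2 fold changes were -0.45 ± 1.11, -0.25 ± 0.39 and -0.35 ± 0.56 (SE), and their 95% intervals, -3.0 to 2.1, -1.16 to 0.66 and -1.64 to 0.93, include the value of Psmb8. These values moved with single libraries: Psmb7 was at -0.70 without Treg 3 and -0.19 without Treg 1, Psmb6 at -0.12 without Treg 3 and -0.44 without Treg 4, and Psmb5 at -0.76 without Treg 2 and -0.30 without Treg 1. Without Treg 3, Psmb9 was at -0.62 and Psmb10 at -0.49, so Psmb7 then lay lower than both. Psmb7 shares 34.9% of its exonic bases with a gene on the other strand, Nek6.

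**Figure D2:**
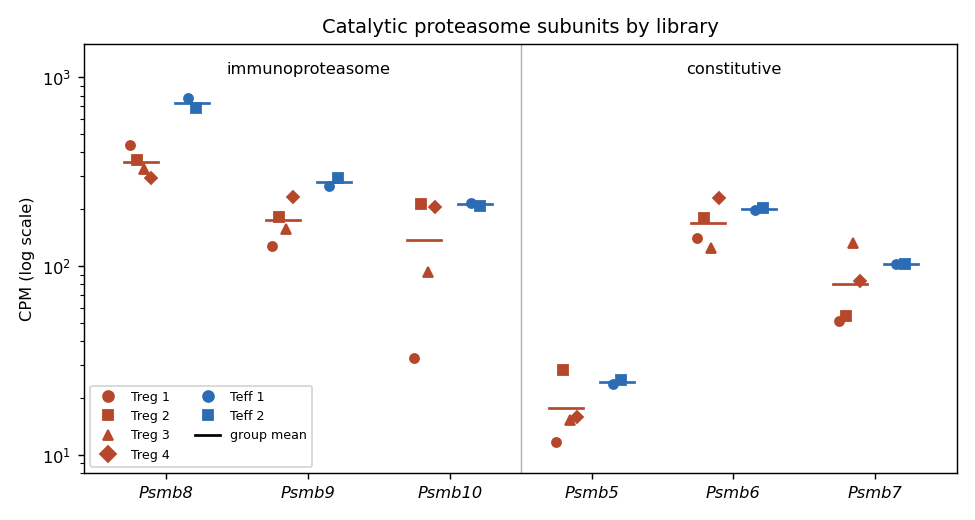
Level in CPM (log axis) of the 3 immunoproteasome and 3 constitutive catalytic genes in each library, Tregs left of Teffs, with group means as lines. All 4 Treg points lie below both Teff points for Psmb8 and Psmb9, and the Psmb10 points of Tregs spread from 32.5 to 214 CPM.

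The immunoproteasome genes were then set against the constitutive ones within each library, which removes the library scaling. The summed level of Psmb8, Psmb9 and Psmb10 was 2.94, 2.89, 2.12 and 2.22 times that of Psmb5, Psmb6 and Psmb7 in Treg 1 to Treg 4, against 3.87 and 3.61 times in Teff 1 and Teff 2. The immunoproteasome sum was the larger in all 6 libraries, and the ratio was lower in every Treg library than in both Teff libraries. Psmb8 made up 73.2%, 47.9%, 56.6% and 39.9% of the immunoproteasome sum in Treg 1 to Treg 4. Its share was 61.8% and 57.7% in Teff 1 and Teff 2, so the ratio of sums leans on that gene. On the log2 scale the ratio was 1.33 ± 0.25 (SD, n = 4) in Tregs and 1.90 ± 0.07 (SD, n = 2) in Teffs, a difference of -0.57, which is given as a description with no test because the genes were chosen with results known. It was -0.49 without Treg 3 and -0.56 when each gene was divided by its exonic length. Per kilobase of exon the ratio was 1.66, 1.71, 1.35 and 1.35 in Treg 1 to Treg 4, against 2.31 and 2.16 in Teff 1 and Teff 2.

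By pairs that share a place in the core, the differences of the mean log2 ratios were alike in size, at -0.53 for Psmb8 to Psmb5, -0.42 for Psmb9 to Psmb6 and -0.52 for Psmb10 to Psmb7, while the spread among Tregs differed. The log2 ratio of Psmb9 to Psmb6 counts was -0.14, 0.01, 0.34 and 0.02 in Treg 1 to Treg 4, against 0.42 and 0.54 in Teff 1 and Teff 2, with no overlap. That of Psmb8 to Psmb5 was 5.21, 3.69, 4.41 and 4.2 in the Treg libraries, against 5.04 and 4.78 in the Teff libraries, with Treg 1 above both. That of Psmb10 to Psmb7 was -0.65, 1.98, -0.51 and 1.31 in the Treg libraries, against 1.07 and 1.03 in the Teff libraries. Treg libraries thus lay on both sides of the Teff values for beta5 and beta2, and below them for beta1. The Psmb8 to Psmb5 ratio rests on 65 to 175 Psmb5 counts in Tregs and 178 and 128 in Teffs, and 54.1% of the 50-base windows of Psmb5 transcripts also occur in other annotated genes, so reads from them may have had several alignments. For Psmb6, 2.67% of the windows are shared. Psmb8 over Psmb6 was 1.64, 1.01, 1.39 and 0.34 on the log2 scale in Treg 1 to Treg 4, against 1.97 and 1.76 in Teff 1 and Teff 2. All Treg libraries were lower. Psmb8 and Psmb6 do not share a place in the core, and the pair was chosen with earlier results of these data known. It is a description and does not replace the Psmb8 to Psmb5 ratio, whose ranges overlapped.

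**Figure D3:**
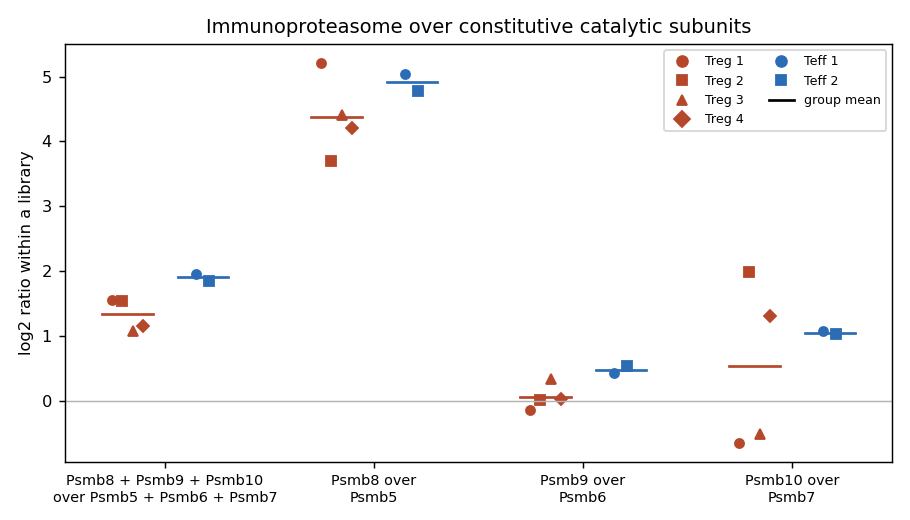
Log2 ratio of immunoproteasome to constitutive counts within each library, for the sums and for the pairs that occupy the same place in the core, Tregs left of Teffs, with group means as lines. The ratio of sums lies between 1.08 and 1.56 in Tregs and at 1.95 and 1.85 in Teffs, and the Psmb10 to Psmb7 ratio spreads from -0.65 to 1.98 in Tregs.

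Levels of different genes were compared per kilobase of exon. Psmb8 ranked 1 among the 48 tested genes in Teffs, at 449 ± 39.4 CPM per kilobase (SD, n = 2), and 5 in Tregs, at 217 ± 38.1 (SD, n = 4). The next level in Teffs was 289 CPM per kilobase, for both Psme1 and Psmb2. In Tregs the order was led by Psmb2 at 295 ± 44.7 CPM per kilobase and Psme2b at 293 ± 108, with Psma7 and Psme1 both at 244, and these neighbours did not differ beyond their SD. The median level over the 48 genes was 58.4 CPM per kilobase in Tregs and 72.9 in Teffs. For 5 genes (Psma5, Psmb3, Psmb5, Psme2 and Psme2b) between 54.1% and 69.3% of 50-base transcript windows also occur in other annotated genes, and 4 of them, all but Psme2b, were below the median in both groups. Their levels against other genes are therefore uncertain.

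The other beta genes, Psmb1 to Psmb4, build the ring without cutting peptides. All 4 had log2 fold changes close to 0, from 0.03 to 0.12, and with upper-quartile scaling from -0.09 to 0.00. Psmb2 averaged 254 ± 38.4 CPM in Tregs, against 248 ± 47 CPM in Teffs, with a 95% interval of -0.75 to 0.82 for its log2 difference. The intervals of Psmb3 and Psmb4 were wider, at -1.71 to 1.77 and -1.56 to 1.66, and include the value of Psmb8. Psmb4 had 137 CPM in Treg 3 and 36.4 to 51.5 CPM in the other Treg libraries, against 63.8 and 68.4 CPM in Teffs. Without Treg 3 the log2 fold changes of the 4 genes ran from -0.54 to 0.29. The alpha ring, which gates entry to the core, had 7 tested genes with log2 fold changes from -0.46 to 0.21 and overlapping ranges for each. Psma7 averaged 288 ± 96.1 CPM in Tregs, against 305 ± 60.4 CPM in Teffs. With all 6 libraries, Psma6 had the largest difference of the ring, with 112, 117, 182 and 232 CPM in Treg 1 to Treg 4, against 243 and 199 CPM in Teff 1 and Teff 2. For Psma6 the log2 fold change was -0.46 ± 0.43 (SE; edgeR adjusted p of 1).

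The 6 ATPase genes, whose products form the ring that unfolds substrates, lay on both sides of 0. Psmc4 had 105, 66.6, 129 and 75.2 CPM in Treg 1 to Treg 4, against 212 and 141 CPM in Teff 1 and Teff 2, with every Treg library lower. Its log2 fold change of -0.91 ± 0.45 (SE) had the second lowest unadjusted p of the proteasome genes, 0.0758, and an edgeR adjusted p of 1, and ran from -1.21 to -0.60 when each library was left out. Psmc3 had 492, 370, 344 and 398 CPM in Treg 1 to Treg 4, against 339 and 314 CPM in Teff 1 and Teff 2. It was the sole proteasome gene with every Treg library higher (log2 fold change 0.30 ± 0.32, edgeR adjusted p of 1). Its lowest Treg and highest Teff values differed by less than the spread within either group. Their summed level was 1170 ± 130 CPM in Tregs, against 1150 ± 113 CPM in Teffs. Psmc3ip matches the symbol rule but encodes a partner of meiotic and DNA-repair recombinases and not an ATPase. It rested on few counts, 7 to 43 counts per Treg library and 190 and 76 counts in Teffs, with 2.53, 2.40, 7.54 and 0.999 CPM in Treg 1 to Treg 4, against 25.2 and 14.7 CPM in Teff 1 and Teff 2. Its log2 fold change of -2.56 ± 1.56 did not pass (edgeR adjusted p of 1), and exons of Mlx on the other strand cover 29.8% of its exonic bases.

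Of the 11 non-ATPase genes of the regulatory particle, 9 had a negative and 2 a positive log2 fold change, and the ranges failed to overlap for Psmd4 alone. Psmd4, which encodes the ubiquitin receptor RPN10, had 182, 150, 105 and 210 CPM in Treg 1 to Treg 4, against 230 and 297 CPM in Teff 1 and Teff 2. Its log2 fold change of -0.71 ± 0.40 (SE) did not pass (edgeR adjusted p of 1). Psmd14, which encodes the deubiquitinase RPN11, had 274, 96.8, 197 and 226 CPM in the Treg libraries, against 321 and 180 CPM in the Teff libraries. With all 6 libraries, Psmd13 had the largest difference of the group, with 109, 17.9, 136 and 73.6 CPM in the Treg libraries, against 127 and 173 CPM in the Teff libraries, a log2 fold change of -0.83 ± 0.72 (SE; edgeR adjusted p of 1). Without Treg 3 the median of the 11 genes was -0.54, against -0.26 with it, and the largest difference was that of Psmd3, at -1.88. Both Psmd13 and Psmd14 had their lowest value in Treg 2, and the ranges of both overlapped. Several of these genes were uneven among Tregs: Psmd12 had 291, 27, 99.2 and 55.8 CPM in Treg 1 to Treg 4, against 146 and 127 CPM in Teff 1 and Teff 2, and Psmd6 had 41.5, 13.1, 168 and 59.1 CPM in the Treg libraries, against 135 and 103 CPM in the Teff libraries. Psmd3, which encodes RPN3, had no count in Treg 1, where 3 counts would be 0.541 CPM, and 3.36, 37.2 and 8.56 CPM in the other Treg libraries, against 12.7 and 16.7 CPM in Teffs.

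Among the activators, Psme1 encodes the alpha chain of PA28, which caps the core in an ATP-independent way. It had 155, 311, 287 and 331 CPM in Treg 1 to Treg 4, against 326 and 318 CPM in Teff 1 and Teff 2, with Treg 1 alone well below the rest (log2 fold change -0.25 ± 0.39, edgeR adjusted p of 1). Its partner chain is encoded by Psme2. Psme2 and the similarly named Psme2b share 54.9% and 69.3% of their 50-base windows with other annotated genes, so the levels of both are uncertain. Psme2 had 13.2, 29.3, 22.6 and 45.5 CPM in Treg 1 to Treg 4, against 18.7 and 21.3 CPM in Teff 1 and Teff 2, and Psme2b had 148, 271, 203 and 358 CPM in the Treg libraries, against 170 and 203 CPM in the Teff libraries. Their log2 count ratio was 3.21 ± 0.21 in Tregs and 3.22 ± 0.04 in Teffs. Psme3, a nuclear activator, had 4.69 CPM in Treg 1 and 63.6 to 88.6 CPM in the other Treg libraries, against 33 and 61.2 CPM in Teffs. Psme4 (PA200) averaged 101 ± 51.6 CPM in Tregs, against 129 ± 10.8 CPM in Teffs. Psmf1, which encodes the inhibitor PI31, was nearly level at 92.8 ± 11.3 CPM in Tregs, against 93 ± 17.8 CPM in Teffs.

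The 7 assembly chaperone genes all lay below the median level of the proteasome genes per kilobase of exon, in Tregs and in Teffs. Psmg2, which guides alpha ring formation together with the product of Psmg1, had the highest level per kilobase of the 7 in both groups, with 30.8, 100, 71.5 and 39.1 CPM in Treg 1 to Treg 4, against 111 and 64.7 CPM in Teff 1 and Teff 2. Psmg1 had 8.84 and 9.56 CPM in Treg 1 and Treg 4 and no count in Treg 2 and Treg 3, where 3 counts would be 0.480 and 0.526 CPM, against 11.3 and 9.11 CPM in Teffs (log2 fold change -1.14 ± 2.44, edgeR adjusted p of 1). Psmg4 stood at 0.428 to 9.99 CPM in Tregs and 9.69 to 11.3 CPM in Teffs, and Psmg3 at 26.1 to 56.5 CPM in Tregs and 34 to 38.4 CPM in Teffs. Of the base chaperones, Psmd10 (gankyrin) averaged 34.6 ± 20.7 CPM in Tregs, against 72.4 ± 23.7 CPM in Teffs. Psmd5 averaged 17.8 ± 16.6 CPM in Tregs, against 19.6 ± 9.56 CPM in Teffs. Psmd9 averaged 44.9 ± 30.5 CPM in Tregs, against 30.7 ± 16.1 CPM in Teffs. The ranges of all 7 genes overlapped. Psmd9 and Psmg4 were lowest in Treg 4 and Psmd5 in Treg 1.

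**Figure D4:**
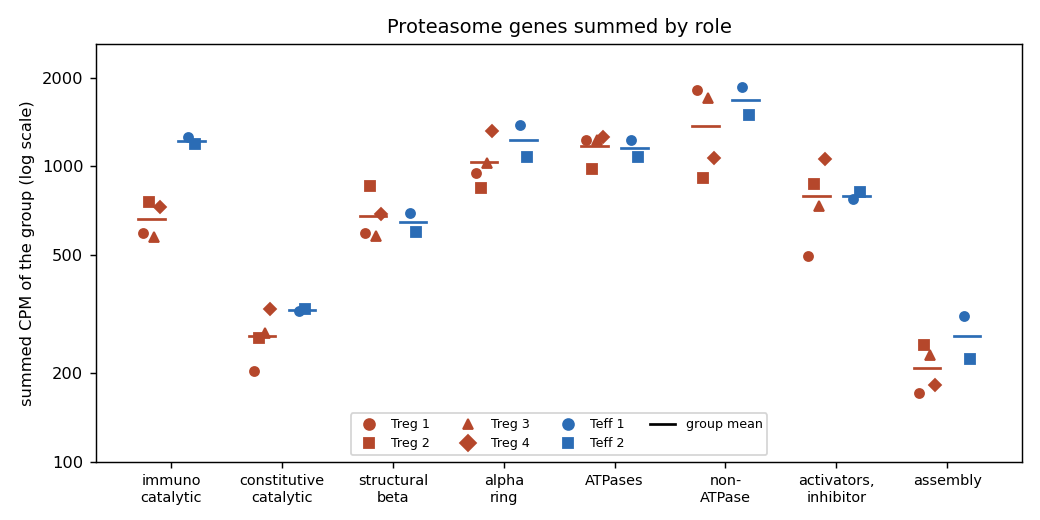
Summed CPM (log axis) of the proteasome genes by role in each library, Tregs left of Teffs, with group means as lines. The immunoproteasome sum lies between 575 and 759 CPM in Tregs and at 1256 and 1188 CPM in Teffs, and the Treg and Teff points overlap for each of the other roles drawn (Psmc3ip and Psmb11 are not drawn).

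The spread within groups differed in size. The highest Treg library exceeded the lowest by a median of 2.54-fold over the 48 tested genes, and the higher Teff library exceeded the lower by a median of 1.24-fold. Over all tested genes these medians were 10.5 in Tregs and 1.55 in Teffs. At a mean of 100 CPM or more they were 2.15 in Tregs and 1.23 in Teffs for 28 proteasome genes, against 2.57 in Tregs and 1.28 in Teffs for all 2428 tested genes at that level. Tregs had 4 libraries and Teffs 2, so a wider range in Tregs follows in part from their number. The lowest Treg value came from Treg 1 or Treg 2 for 17 proteasome genes each (35.4% each), beside 42% and 27.7% of all tested genes. It came from Treg 3 or Treg 4 for 7 proteasome genes each (14.6% each), beside 16.3% and 14% of all tested genes. At a mean of 100 CPM or more, the shares of proteasome genes were 25%, 39.3%, 21.4% and 14.3% for Treg 1 to Treg 4. Those of all tested genes at that level were 24.2%, 26.9%, 29% and 19.9%.

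Genes that act on or with the proteasome were read from a further list. Of 26 such genes in the table, all 26 were tested and 0 were called in either direction by edgeR (0 also at an unadjusted p under 0.05), with a median log2 fold change of 0.08. Nfe2l1, which encodes NRF1, the factor that raises proteasome gene transcription when the proteasome is inhibited, had 8.84, 3.04, 26.3 and 55.9 CPM in Treg 1 to Treg 4, against 68.2 and 61.8 CPM in Teff 1 and Teff 2. All Treg libraries were lower, and the log2 fold change of -1.46 ± 1.12 did not pass (edgeR adjusted p of 1). Zfand5, which encodes a zinc finger protein that binds the proteasome, averaged 37.4 ± 4.7 CPM in Tregs, against 33 ± 1 CPM in Teffs. Zfand5 was the sole gene of the list with all Treg libraries higher, and 2 of the 26 had all Treg libraries lower. The shares of all tested genes were 5.51% higher and 9.49% lower. Uchl5, a deubiquitinase of the regulatory particle, averaged 52 ± 17.8 CPM in Tregs, against 92.4 ± 18.8 CPM in Teffs, also without overlap (log2 fold change -0.83 ± 0.59, edgeR adjusted p of 1). Ngly1, whose product processes NRF1, averaged 56.9 ± 19.6 CPM in Tregs, against 36.9 ± 13.3 CPM in Teffs. Uba1, the main ubiquitin-activating enzyme, averaged 232 ± 171 CPM in Tregs, against 298 ± 29.1 CPM in Teffs. Pomp, the chaperone that helps beta rings close, averaged 150 ± 72.1 CPM in Tregs and 161 ± 19.2 CPM in Teffs.

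The genes that carry proteasome products to the cell surface did not share the difference of the immunoproteasome genes as a list. All 14 MHC class I pathway genes were tested, 0 were called by edgeR (0 also at an unadjusted p under 0.05), and their median log2 fold change was 0.12, with 5 negative and 9 positive. Tap1, which encodes a chain of the peptide transporter and shares its promoter region with Psmb9 (shown above), had 630, 672, 388 and 560 CPM in Treg 1 to Treg 4, against 408 and 473 CPM in Teff 1 and Teff 2. Its log2 fold change was 0.35 ± 0.34 (SE; edgeR adjusted p of 1), against -0.67 ± 0.37 for Psmb9. Within libraries, the log2 ratio of Psmb9 to Tap1 counts was -2.31, -1.88, -1.31 and -1.27 in the Treg libraries, against -0.63 and -0.69 in the Teff libraries. Every Treg library was lower, with a difference of means of -1.03, or -1.16 without Treg 3. This pair was chosen after its values were seen and is a description. Exons of Tap1 cover 15.7% of the exonic bases of Psmb9, so part of the reads there could belong to either gene.

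Nlrc5, which encodes a transactivator of MHC class I and associated genes, was the sole gene of that list of 14 with ranges apart. Tregs lay below Teffs without overlap for 9.49% of all tested genes. The Nlrc5 levels were 266, 360, 222 and 332 CPM in Treg 1 to Treg 4, against 452 and 542 CPM in Teff 1 and Teff 2. Nlrc5 did not pass, at a log2 fold change of -0.75 ± 0.33 (SE) (edgeR adjusted p of 1). Pdia3, a chaperone of peptide loading, averaged 133 ± 50.2 CPM in Tregs and 200 ± 56.8 CPM in Teffs. Erap1, which trims peptides in the endoplasmic reticulum, had 295 CPM in Treg 1 and 39.6 to 81.6 CPM in the other Treg libraries, against 258 and 137 CPM in Teffs. The class I heavy chain gene H2-K1 averaged 4470 ± 1000 CPM in Tregs and 4220 ± 47.1 CPM in Teffs.

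**Figure D5:**
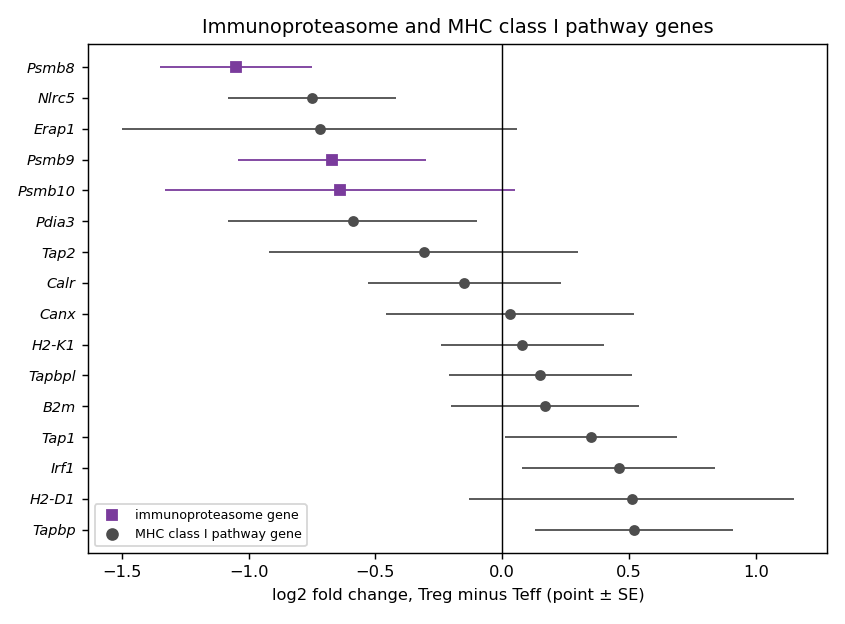
Fitted log2 fold change, Treg minus Teff (points, with bars of 1 SE), of the 3 immunoproteasome genes and the MHC class I pathway genes reported here, in order of size. Psmb8 lies lowest at -1.05 and Tapbp, a peptide-loading chaperone gene, highest at 0.52, with Psmb9 at -0.67 and its neighbour Tap1 at 0.35.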

How the data were processed

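Per the labels' protocols, libraries were made from column-purified RNA of sorted cells with a SMARTer kit for very low input. HTSeq 0.6.1, Bowtie2 2.1.0.0, TopHat2 2.0.12, SAMtools 0.1.19.0, CASAVA 1.8.2 and mm10 are named in the submitters' processing notes, with annotation and strand setting not given in the sources used here. What the authors deposited is raw counts per gene, together with a log2 fold change and a p-value and FDR of their own comparison, per the file headers. The 3 rows that name no gene (88% to 90.2% of column totals) were left out; 61.2% to 66.2% of entries had several alignments.

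Genes passing filterByExpr (smallest count 10) were tested with edgeR 4.0.16 (R 4.3.3, limma 3.58.1). This was a quasi-likelihood F test on group, with TMM scaling and Benjamini-Hochberg adjustment over all tested genes, called under 0.05. The code was also run on simulated counts. Those had a smaller biological coefficient of variation than these libraries and larger changes than any proteasome gene, so that run cannot show the power here. SE is the log2 fold change over the square root of F. CPM use TMM-scaled sizes, and 3 counts correspond to 0.397 to 0.581 CPM, for counting error only. Ratios of pairs add 0.5 count, except those of Psmb8 to Psmb6, Psmb9 to Tap1 and Psme2b to Psme2, which add none. Exonic lengths, overlaps and 50-base windows come from GENCODE M21. Alternatives included DESeq2 1.42.0 and each library left out. The genes, lists and ratios were chosen with earlier results of these data known, and Psme2b was placed in its role group after its values were seen. Genes named in full are Foxp3, the 6 catalytic genes, those whose groups do not overlap, the highest and the most different of each role group, and up to 4 of each pathway list; others were chosen after their values were seen. Psma8 was not analysed here, and 1 gene of the MHC class I list is counted but not reported by name.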

Additional observations from a re-analysis of the deposited data

Results flagged for a closer look

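Of 29 results examined, 1 stood far from the others of its group: Erap1, the trimming peptidase, had 295 CPM in Treg 1, with the nearest Treg library at 81.6 CPM and the lowest at 39.6 CPM. The gap was 0.835 of the whole Treg range, above Dixon's 95% critical value for 4 libraries, and chance flags about 1 in 20 groups. Teffs, with 2 libraries, were not examined in this way. No cause was tested.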

How the results depend on the processing

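No proteasome gene was called under any alternative run: other scalings, DESeq2, no filter, a mean CPM of 10 or more, the replicate block, or each library left out. The lowest adjusted p of any proteasome gene was 0.102, for Psmb8 in DESeq2. Psmb8 kept a negative log2 fold change in all 12 alternatives, from -1.16 to -0.87. The difference of the immunoproteasome to constitutive log2 ratio was -0.65 to -0.49 when each library was left out, -0.49 from the mean of the 3 pairs and -0.56 per kilobase. The proteasome median was -0.30 to -0.11 when each library was left out. Counts of all called genes did move: 140 higher and 43 lower in DESeq2, 17 and 2 with no filter, and 0 to 2 higher and 0 lower when each library was left out. Leaving out a Teff library left 1 in that group, assumed to vary like the Tregs. Numbers 1 and 2 are shared by Tregs and Teffs, without a label that ties them to an animal or day. The deviations of same-numbered libraries correlated at -0.0313 and 0.16. With 2 Teff libraries, pairing the other way gives the same values with the opposite sign. These correlations therefore cannot show whether the numbers pair libraries. With the replicate block, which sets Treg 3 and Treg 4 aside, 9 genes were called higher and 6 lower, the proteasome median was -0.58 and that of all genes -0.64, which ends the difference between them, and Psme2 turned to -0.02. Psma7 ran from -0.34 to 0.13 and Psmd14 from -0.72 to 0.13 when each library was left out, so their directions depend on single libraries; the cause was not tested. The biological coefficient of variation was 1.20, and Teffs had 2 libraries.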
